A study of Mus musculus with 5 samples.

Results

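The genes described are 10 markers and regulators of blood vessel endothelium, Pecam1, Cdh5, Kdr, Flt1, Emcn, Ehd3, Plvap, Tek, Angpt1 and Angpt2, found by exact gene name among the 35478 genes listed for each mouse. They were measured by RNA sequencing of bulk kidney tissue, the cortex by the study's methods. Male mice aged 7 to 8 weeks had undergone unilateral ischemia-reperfusion injury (UIRI), with the left renal pedicle clamped for 35 minutes at 38.5 °C. The right kidney was removed on day 10 and the injured kidney was collected 24 hours later, on day 11. The mice were Prdm16fl/fl, named control mice from here on (2 libraries, mice 1 and 3), or Ksp-Cre/Prdm16fl/fl, named Ksp-Cre mice (3 libraries, mice 1, 2 and 3), with 1 library per mouse. The strain is given as C57BL/6J;129 in 1 label field and as C57BL/6J in the titles. Both genotypes carry the floxed Prdm16 alleles. In Ksp-Cre mice the kidney-specific cadherin promoter drives Cre recombinase in tubular epithelium, so that the deletion is aimed at tubules and not at blood vessels. Uninjured kidneys were not analysed here, so each comparison is between genotypes after injury.

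Endothelial cells line the glomerular capillaries, the peritubular capillaries and the larger vessels of the kidney. Vascular endothelial growth factor A (VEGF-A), which podocytes and tubular cells make, signals mainly through the receptor encoded by Kdr, while the receptor encoded by Flt1 binds the same ligand tightly and, in its soluble form, acts as a decoy. Angiopoietin-1, encoded by Angpt1 and made by cells around the vessels, activates the Tie2 receptor, encoded by Tek, and holds the endothelium quiescent. Angiopoietin-2, encoded by Angpt2 and made mostly by endothelial cells themselves, opposes Angiopoietin-1 in many settings and is known to be induced in activated vessels. Pecam1 and Cdh5 encode proteins of the junctions between endothelial cells, Emcn a surface sialomucin, Ehd3 a membrane-trafficking protein that in the kidney is known as a marker of glomerular endothelium, and Plvap the protein of the diaphragms that span endothelial fenestrae.

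The libraries held between 14939040 and 16425161 counted reads. Values are given as CPM (counts per 1000000 counted reads), scaled by the trimmed mean of M values, and a gene is called where the adjusted p of edgeR's quasi-likelihood test over 16394 genes was under 0.05. Prdm16 itself had 25.3 and 20.02 CPM in the control mice and 17.1, 17.0 and 17.99 CPM in the Ksp-Cre mice, a log2 fold change of -0.38 ± 0.15 (SE, adjusted p = 0.259) and not called. By the study's methods the deletion removes a single exon, in tubular cells. Counts over the whole gene in bulk tissue therefore do not measure the deletion. Ksp-Cre mouse 3 stood apart from the other Ksp-Cre mice, with the highest value of the 5 libraries in 32.0% of genes and the lowest in 32.0%. Fold changes of the 10 genes and of the other pathway genes that moved by over 1.5 times without this mouse are also given without it. In bulk tissue, fewer endothelial cells and less RNA per endothelial cell cannot be told apart.

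All 10 endothelial and angiopoietin genes passed the filter on low counts, and 0 of 10 were called, against 0.976% of all genes tested (0.872% lower and 0.104% higher in Ksp-Cre mice). With a minimum log2 fold change of 1 in either direction 0.708% of all genes were called. At an unadjusted p under 0.05, edgeR gave 2 of 10 genes, Kdr and Ehd3, both with lower values in Ksp-Cre mice, where the shares over all genes were 18.8% in either direction, 11.2% lower and 7.64% higher. DESeq2, run as an alternative, also called 0 of the 10, with a smallest adjusted p of 0.101, and gave the same 2 genes at an unadjusted p under 0.05. The mice of the genotypes did not overlap for 3 of 10 genes (Flt1 higher, Kdr and Ehd3 lower), against 41.6% of all genes (20.3% higher and 21.3% lower). Read against these shares, neither count sets the 10 genes apart from the rest. Their fitted log2 fold changes, Ksp-Cre against control, ran from -0.71 to 0.74 with a median of -0.09, beside a median of 0.04 over all genes.

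**Figure D1:**
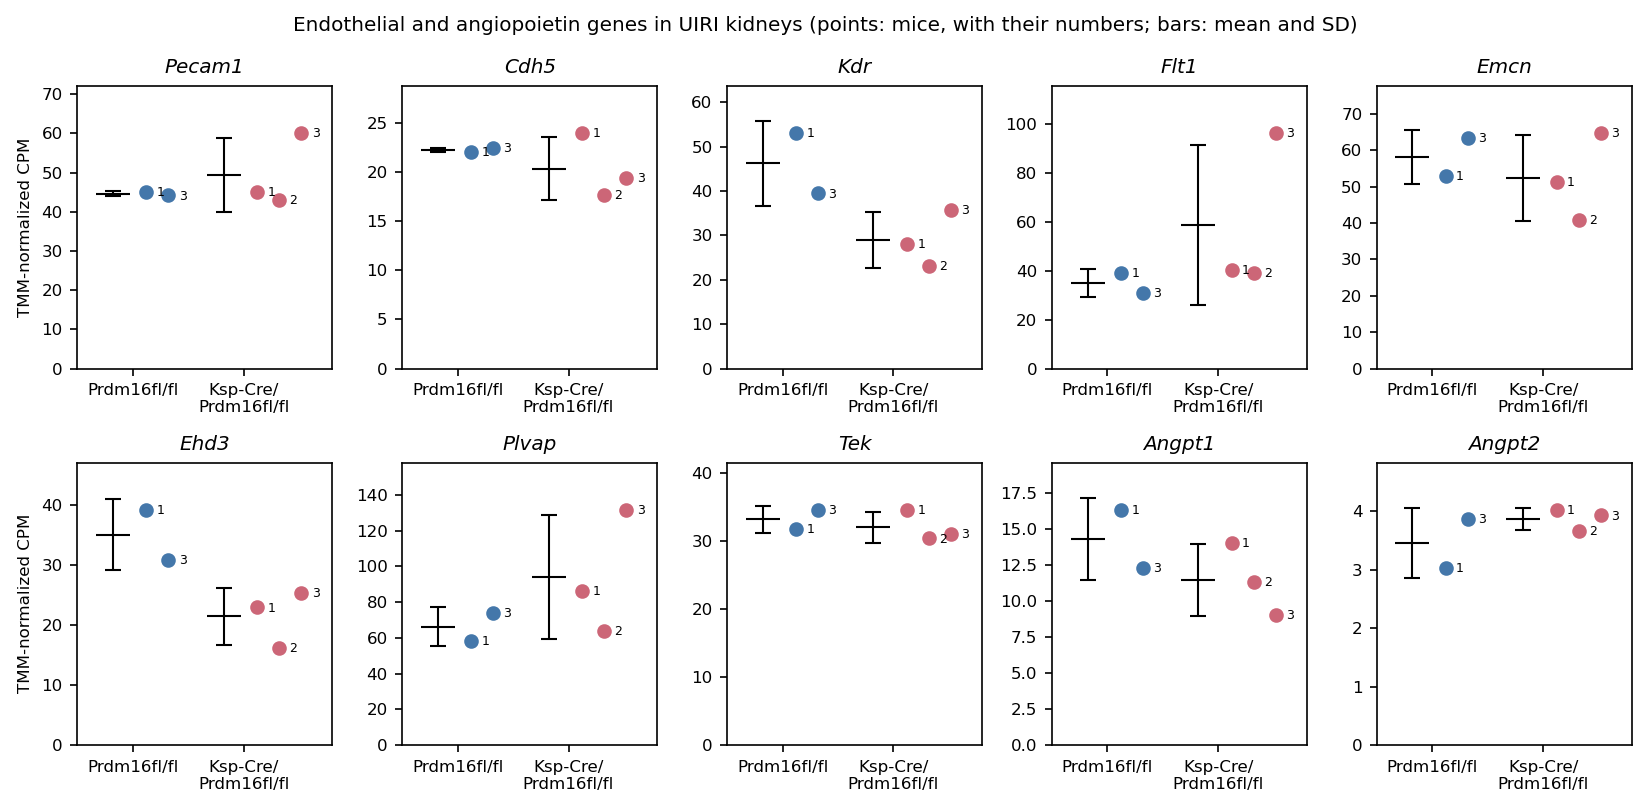
Normalised CPM (linear axis from 0) of the 10 genes in each UIRI kidney, with the control mice in blue, the Ksp-Cre mice in red, the mouse number beside each point, and the genotype's mean and SD as bars. The points of the genotypes lie apart for Kdr and Ehd3, and Ksp-Cre mouse 3 is the highest point for Pecam1, Flt1, Emcn and Plvap.

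The junction genes Pecam1 and Cdh5, which are expressed throughout the endothelium, differed between genotypes by less than the spread between mice. Pecam1 had 45.0 and 44.2 CPM in the control mice and 45.1, 43.0 and 60.1 CPM in the Ksp-Cre mice. Both control mice lay between Ksp-Cre mice 1 and 2, and Ksp-Cre mouse 3 was above all of them. The fitted log2 fold change of Pecam1 was 0.15 ± 0.17 (SE, adjusted p = 0.687), and it was -0.02 without Ksp-Cre mouse 3. Cdh5, which encodes vascular endothelial cadherin, had 22.1 and 22.5 CPM in control mice and 24.0, 17.7 and 19.5 CPM in Ksp-Cre mice. The values of Cdh5 overlapped, since Ksp-Cre mouse 1 was the highest of the 5 mice and mouse 2 the lowest. Its log2 fold change was -0.13 (95% interval -0.54 to 0.29, adjusted p = 0.729). The sign turned on the scale of TPM (transcripts per 1000000, per unit of gene length), to 0.09, where the median of all genes moved up to 0.23. The length listed for a gene is the same in every mouse. With library size scaling of the counts, Cdh5 had -0.01 and the median of all genes was 0.15. The 95% interval of Pecam1, -0.27 to 0.56, likewise spans 0.

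The VEGF receptors Kdr and Flt1 had opposite signs, and neither was called. Kdr had 53.1 and 39.5 CPM in the control mice and 28.2, 23.2 and 35.7 CPM in the Ksp-Cre mice. Each Ksp-Cre mouse was lower than either control, with mouse 3 of the controls and mouse 3 of the Ksp-Cre genotype closest to each other. The mean of Kdr was 46.3 ± 9.61 CPM (SD, n = 2) against 29.0 ± 6.32 CPM (SD, n = 3), a log2 fold change of -0.67 ± 0.22 (SE, 95% interval -1.21 to -0.14) that did not pass adjustment in edgeR (adjusted p = 0.188). Without Ksp-Cre mouse 3 the log2 fold change of Kdr was -0.85 and it was called (adjusted p = 0.0103), in a fit that called 18.9% of all genes. Without control mouse 1, the highest of the 5, it was -0.45. On the TPM scale, where the median of all genes was 0.23, Kdr had -0.40 (limma, unadjusted p = 0.118).

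Flt1 had 39.0 and 30.9 CPM in control mice and 40.3, 39.1 and 96.5 CPM in Ksp-Cre mice. The 4 mice other than Ksp-Cre mouse 3 lay between 30.9 and 40.3 CPM, and mouse 3 was far above them. The genotypes were separated only by the step from 39.0 CPM in control mouse 1 to 39.1 CPM in Ksp-Cre mouse 2, a gap far inside the counting error of either library. The log2 fold change of Flt1 was 0.74 ± 0.43 (SE, adjusted p = 0.408) and 0.18 without mouse 3 (adjusted p = 0.355). The files place Kdr at 5:76093487-76139885 and Flt1 at 5:147498414-147663419, both on the minus strand of mouse chromosome 5, in a build that the sources used here do not name.

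Among the VEGF ligands, the gene of VEGF-A, Vegfa, had 450.2 and 391.6 CPM in the control mice and 246.5, 245.6 and 196.8 CPM in the Ksp-Cre mice. Every Ksp-Cre mouse was well below both control mice, with a log2 fold change of -0.87 ± 0.16 (SE) that missed the threshold in edgeR (adjusted p = 0.0610). Vegfb, a ligand of the Flt1 receptor, had 44.8 and 53.3 CPM against 30.6, 29.1 and 31.5 CPM, a log2 fold change of -0.69 ± 0.13 (SE, adjusted p = 0.0632). DESeq2, which called 7.54% of the genes to which it gave an adjusted p, called both Vegfa (adjusted p = 1.9e-04) and Vegfb (adjusted p = 0.0046). Vegfa and Vegfb were also called without Ksp-Cre mouse 3, with log2 fold changes of -0.77 and -0.71. The other ligands and receptors showed no such gap: the log2 fold changes were 0.13 for Vegfc and 0.31 for Vegfd (0.13 without Ksp-Cre mouse 3), which act in lymphatic vessels, 0.12 for Pgf, which encodes placental growth factor, and 0.29 for Flt4, the receptor gene of the lymphatic ligands. The co-receptor genes Nrp1 and Nrp2 had -0.09 and 0.41, and the sign of Nrp1 turned to 0.04 with library size scaling and to 0.14 without Ksp-Cre mouse 3.

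**Figure D2:**
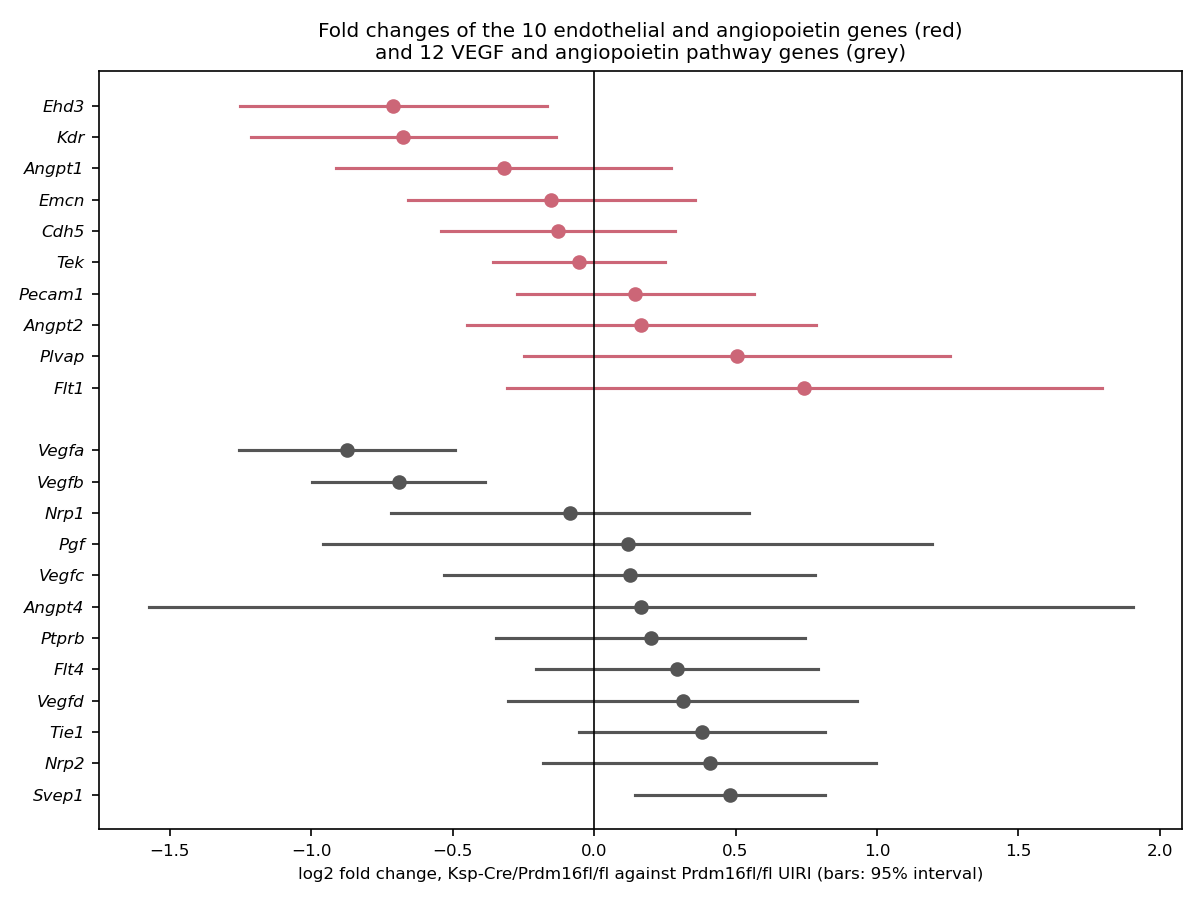
Fitted log2 fold changes, Ksp-Cre against control UIRI kidneys, of the 10 endothelial and angiopoietin genes (red) and of the other 12 genes of the VEGF and angiopoietin pathway (grey), with 95% intervals from edgeR. The intervals of Kdr, Ehd3, Vegfa, Vegfb and Svep1 do not reach 0, and none of the 22 genes passed an adjusted p of 0.05.

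Emcn, Ehd3 and Plvap are known to differ between vessel beds of the kidney, and they had different signs here. Ehd3, the glomerular endothelial gene, had 39.2 and 30.9 CPM in the control mice and 22.9, 16.1 and 25.3 CPM in the Ksp-Cre mice. Again no Ksp-Cre mouse reached the level of a control. The mean of Ehd3 was 35.0 ± 5.88 CPM (SD, n = 2) against 21.4 ± 4.74 CPM (SD, n = 3), a log2 fold change of -0.71 ± 0.22 (SE, 95% interval -1.25 to -0.17, adjusted p = 0.172 in edgeR). Without Ksp-Cre mouse 3 it was -0.84 and called (adjusted p = 0.0180), and without control mouse 1 it was -0.53. On the TPM scale Ehd3 had -0.46 (limma, unadjusted p = 0.0853). The files place Ehd3 at 17:74111836-74139088 on the plus strand.

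Emcn had 52.9 and 63.3 CPM in the control mice and 51.3, 40.9 and 64.7 CPM in the Ksp-Cre mice. Ksp-Cre mouse 3 was the highest of the 5 and mouse 2 the lowest, so the genotypes overlapped. The log2 fold change of Emcn was -0.15 ± 0.21 (SE, adjusted p = 0.736), -0.33 without Ksp-Cre mouse 3 (adjusted p = 0.136) and 0.07 on the TPM scale or after correction for gene length and GC content. Plvap had 58.5 and 73.9 CPM in the control mice and 86.0, 64.0 and 131.7 CPM in the Ksp-Cre mice. Its values overlapped, with Ksp-Cre mouse 2 between the control mice and mouse 3 far above the rest. The log2 fold change of Plvap was 0.50 ± 0.31 (SE, 95% interval -0.25 to 1.26, adjusted p = 0.431), and 0.19 without mouse 3.

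The Tie2 receptor gene Tek, which had the smallest standard error of the 10, had 31.8 and 34.6 CPM in control mice and 34.6, 30.4 and 31.0 CPM in Ksp-Cre mice. The mice of the genotypes were interleaved. Its log2 fold change was -0.05 ± 0.12 (SE, adjusted p = 0.853), with a 95% interval of -0.36 to 0.25, and it was -0.03 without Ksp-Cre mouse 3, 0.06 with library size scaling and 0.17 on the TPM scale, where the median of all genes moved up too. Angpt1, the gene of the activating ligand, had 16.4 and 12.3 CPM in control mice and 14.1, 11.3 and 9.06 CPM in Ksp-Cre mice. The values of Angpt1 overlapped, with the lowest in Ksp-Cre mouse 3 and the highest in control mouse 1, and the log2 fold change was -0.32 ± 0.24 (SE, adjusted p = 0.519). It was -0.17 without Ksp-Cre mouse 3 and -0.10 without control mouse 1, and -0.51 without control mouse 3 and -0.49 without Ksp-Cre mouse 1.

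Angpt2 was the least abundant of the 10, with 3.03 and 3.87 CPM in control mice and 4.03, 3.66 and 3.93 CPM in Ksp-Cre mice. Control mouse 1 was below the other 4 mice, which lay close together. The log2 fold change of Angpt2 was 0.17 ± 0.25 (SE, 95% interval -0.45 to 0.78, adjusted p = 0.764), and without control mouse 1 it was -0.003. Angpt2 lies inside Mcph1, which is on the other strand, but the exons of both genes share 3 bases only. Of the genes that act with Tie2, Tie1, which encodes its partner receptor, had 30.0 and 30.8 CPM against 35.8, 34.7 and 48.3 CPM, a log2 fold change of 0.38 (adjusted p = 0.317), or 0.22 without Ksp-Cre mouse 3. Ptprb, the gene of the phosphatase VE-PTP that acts on Tie2, had a log2 fold change of 0.20, or -0.04 without Ksp-Cre mouse 3, and Angpt4, a further angiopoietin gene with 1.73 CPM at most, had 0.16, or -0.59 without that mouse. Svep1, which encodes a large matrix protein, had 16.1 and 16 CPM in control mice and 24.1, 21.6 and 21.5 CPM in Ksp-Cre mice, a log2 fold change of 0.48 ± 0.14 (SE, adjusted p = 0.150). In all, edgeR called 0 of the 12 pathway genes and DESeq2 called 2, Vegfa and Vegfb, beside 0.976% and 7.54% of all genes. With no filter on low counts edgeR called Vegfa (adjusted p = 0.0370), and without Ksp-Cre mouse 3 it called 4, Vegfa, Vegfb, Nrp2 and Svep1, where 18.9% of all genes were called. At an unadjusted p under 0.05 edgeR gave 1 higher (Svep1) and 2 lower (Vegfa and Vegfb), 9 of the 12 had higher and 3 lower fitted values in Ksp-Cre mice, and their median log2 fold change was 0.18.

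Per unit of the exon length listed for each gene, the 10 genes spanned levels from 94.8 ± 34.5 TPM (SD over the 5 mice) for Plvap to 2.53 ± 0.42 TPM for Angpt2. The order of genes rests on these lengths. Plvap and Emcn (88.8 ± 11.5 TPM) came first and their ranges over the mice overlapped. Pecam1, at 34.5 ± 5.86 TPM, was below both and above all other genes of the group in every mouse. The next 6 genes, in order of mean, were Ehd3 (17.4 TPM), Tek (15.99 TPM), Cdh5 (12.7 TPM), Kdr (10.9 TPM), Flt1 (8.58 TPM) and Angpt1 (6.76 TPM), and each overlapped with its neighbour in that order. Angpt2 was below all other genes of the group in every mouse. The defining markers of endothelium Pecam1, Cdh5, Kdr, Emcn, Plvap and Tek were all present in the tissue, with 88.8% of tested genes at a lower mean level than Plvap and 21.2% lower than Angpt2.

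Ratios of these genes within a library do not depend on how libraries are scaled, and 6 such ratios of TPM were compared. With 2 mice against 3 an exact two-sided permutation test cannot give a p below 0.2, so none of them could pass a threshold of 0.05. The ratio of Kdr to Flt1 was 2.41 and 2.27 in the control mice and 1.24, 1.05 and 0.657 in the Ksp-Cre mice. Per unit of listed exon length, Kdr was thus above Flt1 by more than 2 times in both control mice. It was close to Flt1 in Ksp-Cre mice 1 and 2 and below it in Ksp-Cre mouse 3. These levels rest on listed exon lengths of 7843 bases for Kdr and 13929 for Flt1. In reads, Kdr had 787 and 550 in control mice against 579 and 431 for Flt1. Ksp-Cre mice had 496, 392 and 536 reads of Kdr against 710, 662 and 1448 of Flt1. The difference between genotypes does not depend on the lengths. The mean log2 ratio of Kdr to Flt1 differed by -1.30 between genotypes (exact permutation p = 0.2, 0.3 adjusted over the 6 ratios).

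The ratio of Ehd3 to Pecam1 was 0.793 and 0.636 in control mice and 0.463, 0.342 and 0.383 in Ksp-Cre mice. Relative to this pan-endothelial gene, the values of Ehd3 in all 3 Ksp-Cre mice lay below those of the controls, with a difference of -0.85 in the mean log2 ratio (exact permutation p = 0.2, adjusted 0.3). Emcn to Pecam1 did not overlap either, at 2.65 and 3.23 against 2.57, 2.15 and 2.43, a log2 difference of -0.30 (exact permutation p = 0.2, adjusted 0.3). The step from 2.65 in control mouse 1 to 2.57 in Ksp-Cre mouse 1 lies inside the counting error. Plvap to Pecam1 overlapped between genotypes, at 2.04 and 2.63 against 3, 2.34 and 3.45 (exact permutation p = 0.4, adjusted 0.4). For the angiopoietins, Angpt2 to Angpt1 was 0.236 and 0.399 in control mice and 0.364, 0.411 and 0.552 in Ksp-Cre mice, with overlap and a log2 difference of 0.51 (exact permutation p = 0.4, adjusted 0.4). Angpt2 to Tek was 0.132 and 0.155 against 0.161, 0.167 and 0.175, a small step that did separate the genotypes, with a log2 difference of 0.23 (exact permutation p = 0.2, adjusted 0.3). The step from control mouse 3 to Ksp-Cre mouse 1 lies inside the counting error of their 54 and 71 Angpt2 reads.

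**Figure D3:**
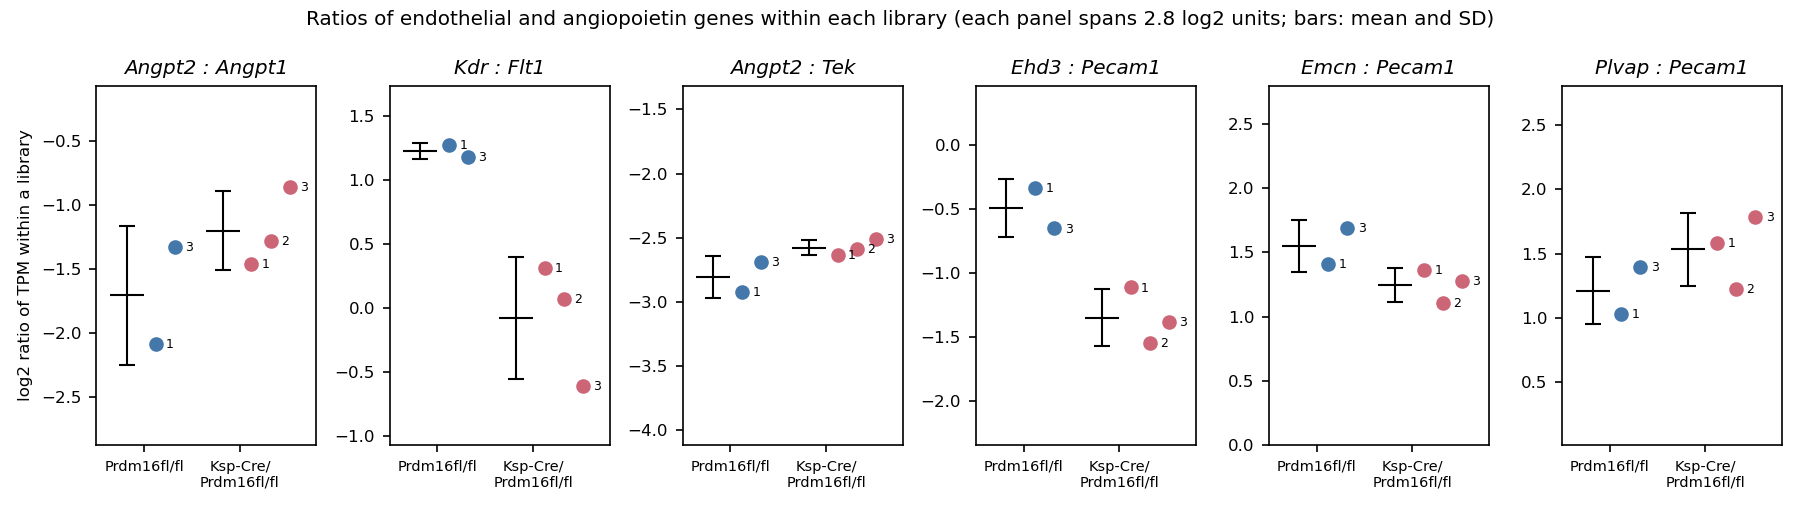
Log2 ratios of TPM between pairs of genes within each UIRI kidney (control in blue, Ksp-Cre in red, mouse numbers beside the points, bars for mean and SD, each panel on its own range of equal width). Kdr to Flt1, Ehd3 to Pecam1, Emcn to Pecam1 and Angpt2 to Tek separate the genotypes, and the other 2 ratios overlap.

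Lists of related genes are given by counts and medians, without a test of a list. Of 20 other pan-endothelial genes 0 were called by edgeR or DESeq2 and 0 had an unadjusted p under 0.05 in edgeR, with a median log2 fold change of 0.12. The smallest p-values among them belonged to Nos3, which encodes endothelial nitric oxide synthase (1.01, with 28.4 CPM in Ksp-Cre mouse 3 and 7.68 to 10.8 CPM in the other mice), and to the transcription factor genes Sox18 (0.43) and Sox7 (0.45). Of 8 genes listed for glomerular endothelium beside Ehd3, 7 were tested, all 7 had lower fitted values in Ksp-Cre mice with a median of -0.58, edgeR called 1, Lpl, and DESeq2 called 2, Lpl and Mapt. The genotypes did not overlap for 5 of the 7, Lpl, Gata5, Mapt, Pi16 and Tbx3, and the last 2 are named after their values were seen. The same 5 had an unadjusted p under 0.05 in edgeR, where 11.2% of all genes did with lower values. Over all genes 41.6% did not overlap, 21.3% with lower values in Ksp-Cre mice. Fitted values were lower for 7537 of the 16394 genes tested, and DESeq2 called 7.54% of the genes to which it gave an adjusted p. Lpl, which encodes lipoprotein lipase and is also expressed by cells other than endothelium, fell from 309.3 and 340.8 CPM to 123.2, 119.5 and 116.3 CPM (log2 fold change -1.44, adjusted p = 0.0242). Gata5, a transcription factor gene with 2.09 CPM or less in every mouse, had a log2 fold change of -2.31 (adjusted p = 0.121), and Mapt, best known from neurons, had -0.49 (adjusted p = 0.121).

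Podocytes, which share the glomerulus with the cells that express Ehd3, had the same direction in their marker genes. All 8 podocyte genes had lower fitted values in Ksp-Cre mice, as had 7537 of the 16394 genes tested, with a median of -0.51. At an unadjusted p under 0.05 edgeR gave 4 of the 8, and 5 of the 8 did not overlap between genotypes, all with lower values. Over all genes the shares with lower values were 11.2% and 21.3%. Nphs1, the gene of the slit diaphragm protein nephrin, fell from 53.9 and 50.0 CPM to 28.3, 29.5 and 28.7 CPM (log2 fold change -0.85, adjusted p = 0.0412), while Podxl, the gene of the surface sialomucin podocalyxin, had -0.64 without being called by edgeR. DESeq2 called 4 of the 8, beside 7.54% of the genes to which it gave an adjusted p. Among the 4 were Nphs1, Podxl and Ptpro, and the last is named after its value was seen. The calls of Lpl and Nphs1 were lost, with their direction kept, when any mouse other than Ksp-Cre mouse 3 was left out, since 0 genes were then called in all. Nphs1 was not called with library size scaling (adjusted p = 0.0730) or by limma on the TPM scales (0.106 and 0.104), where Lpl was. The summed level of the podocyte list was 914.6 and 732.5 CPM in control mice and 548.1 to 591.1 CPM in Ksp-Cre mice. Ehd3, Kdr, Vegfa and these podocyte sums were each lower in all 3 Ksp-Cre mice than in both control mice. The same held for 21.3% of all genes tested. Proximal tubule genes had lower values too, with a median log2 fold change of -1.15. The number of glomeruli in each piece of tissue was not measured, and its part in the values of Ehd3 and Kdr was not tested.

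Endothelial genes of other vessel beds and states gave no call in edgeR, and DESeq2 called 1, Thbd. At an unadjusted p under 0.05 edgeR gave 1 of 5 genes of peritubular capillaries and vasa recta, 4 of 11 arterial and venous genes (among them Hey1, named after its value was seen), 1 of 7 tip cell and angiogenic genes, 2 of 6 activation genes and 0 of 5 lymphatic genes, beside 18.8% of all genes tested. For the 5 genes of peritubular capillaries and vasa recta the median log2 fold change was -0.06, with Igfbp5 at -0.99, the vasa recta urea transporter gene Slc14a1 at -0.69 and Igfbp3 at 0.46, or -0.05 without Ksp-Cre mouse 3. For the 11 arterial and venous genes the median was 0.06, with the connexin gene Gja5 at -1.16, the tight junction gene Cldn5 at -0.74 and the venous receptor gene Ephb4 at 0.41. For the 7 tip cell and angiogenic genes it was 0.11, with Esm1 at -0.92 (-0.60 without Ksp-Cre mouse 3), Apln at -0.81 (-0.43 without it) and the netrin receptor gene Unc5b at 0.69. All 6 tested genes of the endothelial activation list had higher fitted values, as had 8857 of the 16394 genes tested, with a median of 0.44. Among the 6 were Thbd, the thrombomodulin gene (0.61, adjusted p = 0.120), the endothelin gene Edn1 (0.44) and the selectin gene Selp (1.08 CPM at most). The mice were not alike in this. Against the control mean, the list's median log2 value was 0.72 and 0.49 in Ksp-Cre mice 1 and 2 but 0.06 in mouse 3. Vcam1, of the same list and named after its values were seen, had 254.0 TPM or more in every mouse, where Pecam1 had 43.1 TPM or less. Which cells of the bulk tissue expressed the activation genes was not tested. For the 5 lymphatic genes the median was 0.03, with Mmrn1 at 0.56 (0.34 without Ksp-Cre mouse 3), Ccl21a at -0.85 and Prox1 at -0.16 (-0.05 without it), and the last changed sign to 0.04 on the TPM scale.

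Markers of other cell types were read in the same mice. Over all genes tested, 18.8% had an unadjusted p under 0.05 in edgeR, 11.2% lower and 7.64% higher. EdgeR called 0.976% of them, and DESeq2 called 7.54% of the genes to which it gave an adjusted p. Of 10 pericyte and mesangial genes 0 were called by edgeR or DESeq2, with 3 at an unadjusted p under 0.05 in edgeR (median -0.14), with the receptor gene of pericytes Pdgfrb at 0.44, Cspg4 at 0.40 and the smooth muscle gene Myh11 at -0.58. Leukocyte genes, which matter here because Pecam1 is also expressed by leukocytes and platelets, had a median of 0.00 over 7 tested genes and summed levels of 281.3 and 309.5 CPM against 384.6, 372.1 and 255.3 CPM, with 0 called by edgeR and 1, Itgam, by DESeq2, and Itgam at 0.95, Csf1r at 0.26 and Cd3e at -0.35, the last 2 at 0.40 and -0.04 without Ksp-Cre mouse 3. Over 4 tested platelet genes the median was 0.25, led by Ppbp, then Pf4 and Itga2b, with 0 called by edgeR and 1, Ppbp, by DESeq2, and the summed level of the 7 listed was between 17.1 and 24.2 CPM in every mouse. Erythroid genes, among them the haemoglobin genes Hba-a1, Hba-a2 and Hbb-bs, had summed levels of 6.67 and 10.8 CPM in control mice and 151.2, 150.3 and 40.5 CPM in Ksp-Cre mice, and 0 of 5 were called by edgeR, with all 5 at an unadjusted p under 0.05, and 5 by DESeq2. All 8 proximal tubule genes had lower fitted values (median -1.15), 6 of them at an unadjusted p under 0.05 in edgeR. EdgeR called 0 of the 8 and DESeq2 called 5, and Slc22a6, Slc34a1 and Slc13a3 had the smallest p-values in edgeR. Of 8 tubular injury genes 7 had higher fitted values (median 1.18), all 7 at an unadjusted p under 0.05 in edgeR, and DESeq2 called 6. EdgeR called Krt19, a keratin gene (1.97, adjusted p = 0.0412), ahead of Krt18 and Havcr1. That call was lost when any mouse other than Ksp-Cre mouse 3 was left out. No listed gene was at 0 in all 5 libraries, and the part of these other cells in the endothelial values was not tested.

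**Figure D4:**
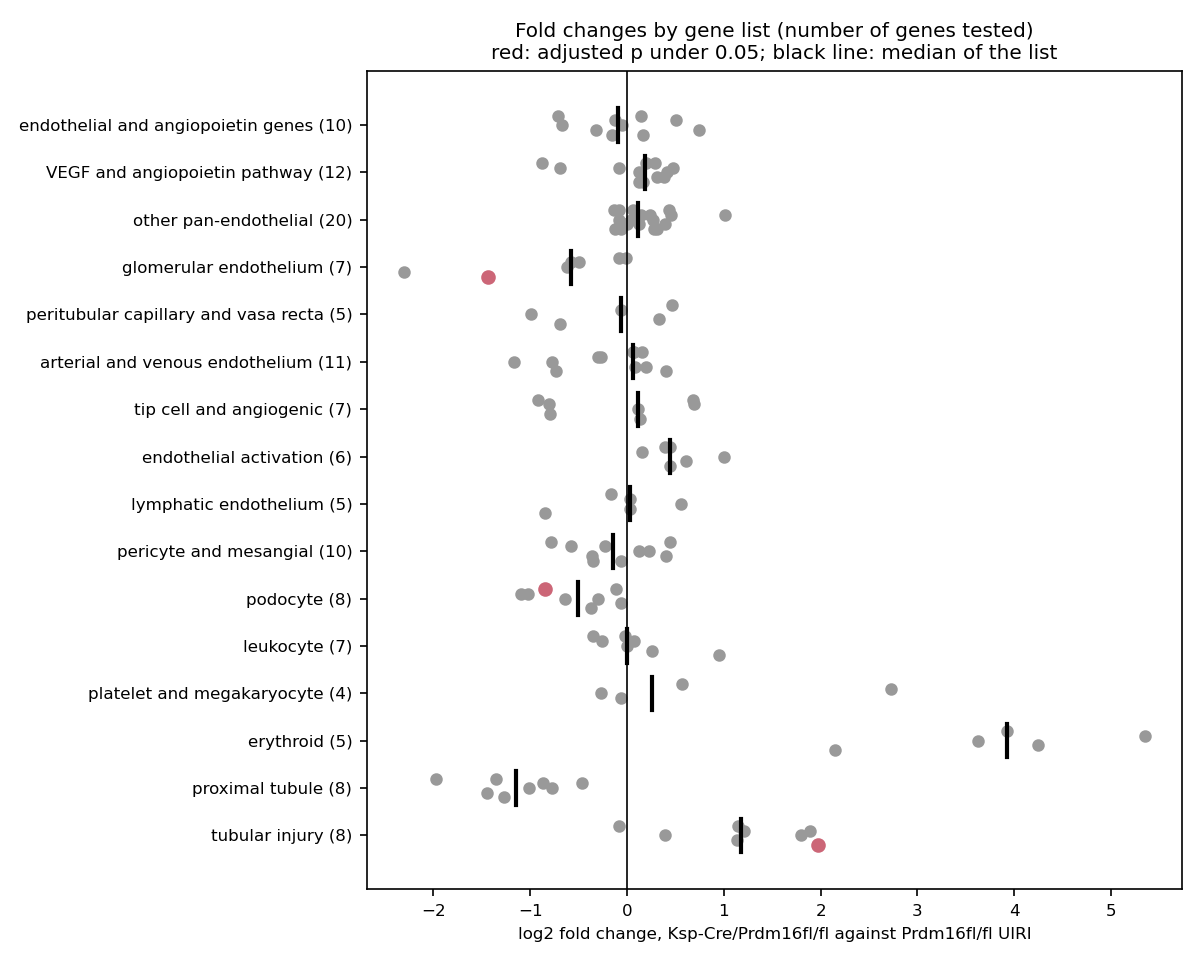
Fitted log2 fold changes, Ksp-Cre against control UIRI kidneys, of each tested gene (points) in the 10 endothelial and angiopoietin genes and in 15 other lists, with the list's median as a black line and genes with an adjusted p under 0.05 in red. The medians of the glomerular endothelium and podocyte lists lie at -0.58 and -0.51, while those of the 10 genes and of the other pan-endothelial list lie at -0.09 and 0.12.

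Ksp-Cre mouse 3 had the highest value of the 5 mice in 4 of the 10 genes (Pecam1, Flt1, Emcn and Plvap) and the lowest in 1 (Angpt1). It was also the highest in 11 and the lowest in 5 of the 20 other pan-endothelial genes, and the lowest in 5 of the 7 tip cell and angiogenic genes. The fold changes of Flt1, Plvap, Nos3 (0.32 without it) and Igfbp3 were smaller in size without this mouse, while those of Kdr and Ehd3 were larger.

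The genes whose pattern over the 5 mice was most like that of Pecam1, by root mean square distance of centred log2 CPM among 11199 candidate genes outside the lists, were Kctd9 (0.016), Mast2 (0.023) and Anapc7 (0.026). The nearest of the other 9 endothelial and angiopoietin genes was Emcn, at 0.192, which would rank 3742 among the candidates. For Angpt2 the nearest genes were Impdh2 (0.040), Tnfsf12 (0.040) and Klhl6 (0.044), and the nearest of the 9 was Tek at 0.135. Angpt2 had only 45 to 71 reads per mouse, and its mean log2 CPM was below the minimum of 3 set for the candidates. The counting error of so few reads is larger than these smallest distances, so the order of its nearest genes cannot be read. These distances are descriptions over 5 libraries that share their depth and scaling.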

How the data were processed

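The deposited tables, 1 per mouse, hold for each gene the count, the FPKM and the TPM as the authors computed them. Per the labels and the submitters' processing notes, messenger RNA libraries were base-called with CASAVA and counted with featureCounts 2.0.1, and the notes name hg38 although the samples are mouse. The aligner, mouse build, annotation and strandedness are not given in the sources used here. Deposited counts are whole reads and deposited TPM was recomputed from counts and lengths within 4.65e-06. Text lines split within 5 genes were joined again before use. FPKM was not used.

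Counts were filtered with filterByExpr, scaled by TMM and tested with edgeR 4.0.16 (quasi-likelihood, Benjamini-Hochberg over 16394 genes) in R 4.3.3. DESeq2 1.42.0, limma 3.58.1 on log2(TPM + 1) and log2(TPM + 0.1), other scalings and filters, a gene length and GC correction (loess, span 0.3), a replicate block and leaving out each mouse were alternatives. Ratios of TPM were compared by an exact two-sided permutation test. The groups follow the labels, and each library is from a different mouse. The 10 genes and all lists were chosen with earlier results of these data known. Named from the lists were all 10 genes, all 12 pathway genes, the 3 genes with the smallest p in each other list, and the 3 nearest profiles of Pecam1 and Angpt2. 1 gene that this rule would name is not reported here. The precision is set by the number of mice, 2 and 3 per genotype, rather than by depth.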

Additional observations from a re-analysis of the deposited data

How the results depend on the processing

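None of the 10 endothelial and angiopoietin genes was called under any of the alternatives except without Ksp-Cre mouse 3, so that leaving out each mouse in turn gave 0 to 2 called genes (Kdr and Ehd3 without that mouse). Over all genes the 160 calls became 1183 with DESeq2, 471 with no filter on low counts, 51 with library size scaling, 46 and 43 with limma on log2(TPM + 1) and log2(TPM + 0.1), 44 with the loess correction for length and GC, and 0 to 3053 when each mouse was left out (0 without any of the other 4 mice, 3053 without Ksp-Cre mouse 3), so that the calls of Lpl, Nphs1 and Krt19 were lost without any of those 4 and in the replicate block, and that of Nphs1 also with library size scaling and on the TPM scales. Without a control mouse, the lone control is assumed to vary like the Ksp-Cre mice. The replicate block gave 0 calls over all genes, and in it Plvap had a log2 fold change of 0.70 (edgeR, adjusted p = 0.244). Deviations from the genotype means had correlations of 0.001 and -0.022 between mice with the same number (numbers 1 and 3). With 2 control mice the deviations of the controls mirror each other. These correlations therefore cannot decide whether the numbers pair the mice. Signs turned on the TPM scale (pseudocounts 1 and 0.1) for Cdh5 (0.094 and 0.099), Emcn (0.068 and 0.069), Tek (0.17 and 0.18), Nrp1 (0.11 and 0.11) and Prox1 (0.041 and 0.059), with library size scaling for Tek (0.063) and Nrp1 (0.042), and with the length and GC correction for Emcn (0.068). The median of all genes moved to 0.15 with library size scaling and to 0.23 and 0.25 on the TPM scales, further than most of these values. Leaving out 1 mouse at a time turned a sign for Pecam1 (-0.015 to 0.24), Tek (-0.12 to 0.0086), Angpt2 (-0.0030 to 0.35), Vegfc (-0.043 to 0.28), Pgf (-0.24 to 0.58), Nrp1 (-0.23 to 0.14), Angpt4 (-0.59 to 0.88), Ptprb (-0.037 to 0.34), Igfbp3 (-0.054 to 0.68) and Ccl21a (-1.53 to 0.45). Of 140 comparisons of the 10 genes with an alternative, 127 kept their sign and their side of the threshold. In the alternatives that called 0 genes in all, an uncalled gene could not change side, so these totals do not measure robustness. All 36 comparisons of the ratios kept their sign. Those with counts in place of TPM could not differ, since the lengths cancel between genotypes.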
